A study of Mus musculus with 6 samples.

Results

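The unfolded protein response and the integrated stress response were examined through 34 genes listed by symbol. Of these, 33 were rows of the 16665 genes in the deposited table, matched by Ensembl gene identifier, and expression of Vldlr, a lipoprotein receptor gene, was not analysed here. The genes were divided by role into 18 measured targets of the transcription factors ATF4 and CHOP, 10 chaperones and folding factors of the endoplasmic reticulum (ER), and 5 stress sensors with the factors they control. All 6 libraries came from RAW264.7 cells, an established mouse line of monocyte and macrophage character from a leukaemia. In 3 of them the cells had been transfected with a miR-125b mimic, labelled as overexpression of that microRNA; in the other 3 they had received a negative control, labelled miR-125b WT. Time after transfection and dose were not given in the sources used here, and nothing states that the samples of a group were separate cultures. The p-values therefore rest on sample-to-sample spread alone, and that spread may be technical. In bulk RNA, fewer cells expressing a gene and less RNA per cell cannot be told apart.

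Misfolded protein in the ER is sensed by 3 membrane proteins. IRE1 (Ern1) cuts the mRNA of Xbp1 so that an active transcription factor is made, ATF6 (Atf6) is released by proteolysis, and PERK (Eif2ak3) phosphorylates the translation factor eIF2. XBP1 and ATF6 raise chaperones and degradation factors of the ER. Phosphorylated eIF2, which kinases sensing amino acid shortage, double-stranded RNA and haem shortage also produce, slows translation in general and favours translation of ATF4, and ATF4 with its target CHOP (Ddit3) raises genes of amino acid supply and of feedback. Macrophages are known to use these pathways when they secrete heavily or take up lipid.

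Sequence features of the genes are shown first, because the mimic acts through its seed and because the chaperone genes and the ATF4 targets carry different promoter elements. The mature strand miR-125b-5p is encoded at chr9:41581940-41581961 and chr16:77646279-77646300 on the plus strand (RefSeq, GRCm38.p6), and the labels do not say which arm the mimic holds. It is printed here with the seed, bases 2 to 8, in capitals.
miR-125b-5p: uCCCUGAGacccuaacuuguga

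Of the 32 genes tested, 6 (18.8%) held a match to this seed in the longest annotated 3′ untranslated region, against 22.2% of the 9312 tested genes with such a region. The 8mer match CTCAGGGA was present in 1 of the 32 (3.12%) and in 5.33% of all. That gene was Atf5, with a further 7-base match downstream. Atf6 held 3 matches of 7 bases, and Hspa5, Mthfd2 and Pdia6 held 1 each. A match is a description of letters and not a shown binding site. The sites of Atf5 (chr7:44812660-44812667, minus strand), Pdia6 (chr12:17284602-17284608, plus strand) and Hspa5 (chr2:34776299-34776305, plus strand) are given on GRCm38 with the match in capitals, as examples of each kind of match.
Atf5: aagcaaggccCTCAGGGAactggaggag
Pdia6: cactattaggCTCAGGGtttcagggtg
Hspa5: tgtcttggggTCAGGGAgaggaggaat

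Promoters of 31 of the 34 genes were searched on both strands, from 250 bases before to 50 after the annotated start (RefSeq, GRCm38.p6); Atf6, Manf and Slc7a5 had no entry. The ER stress response element, CCAAT and CCACG with 9 bases between them, was found in 5 of 9 ER chaperone and folding genes (Hspa5, Hsp90b1, Pdia6, Dnajc3 and Creld2), in 0 of 18 ATF4 and CHOP targets, in 0 of 4 sensor and factor genes and in 0.137% of 27025 genes overall. Herpud1 held the related element, ATTGG and CCACG with 1 base between them, found in 0.0444% of genes. The core of the ATF4 element, TGATGNAA, was found in 7 of the 18 listed ATF4 and CHOP targets with a promoter entry, a set that includes Vldlr and not Slc7a5 (Asns, Atf3, Chac1, Nupr1, Slc7a11, Trib3 and Vldlr), in 1 of 9 chaperone genes (Herpud1) and in 4.51% of genes overall. The XBP1 element core TGACGTGG was in 0 of the 31 and in 0.714% of all; no match says only that these letters are not in this window. Capitals below mark the fixed letters of the ER stress response element in the direction of the gene, with an opposite-strand match in the second sequence of Hsp90b1.
Hspa5 (chr2:34772017-34772051, plus): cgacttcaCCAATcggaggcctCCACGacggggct
Hsp90b1 (chr10:86705630-86705664, minus): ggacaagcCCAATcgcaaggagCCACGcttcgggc
Hsp90b1 (chr10:86705525-86705559, minus): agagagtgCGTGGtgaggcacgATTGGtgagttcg
Pdia6 (chr12:17266483-17266517, plus): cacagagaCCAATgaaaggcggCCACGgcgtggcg
Dnajc3 (chr14:118937819-118937853, plus): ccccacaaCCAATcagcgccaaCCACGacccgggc

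The ATF4 core is shown with its fixed letters in capitals for the amino acid gene Asns, the factor Atf3, the stress regulator Nupr1 and the pseudokinase Trib3; in the last 3 it lies on the opposite strand.
Asns (chr6:7693217-7693240, minus): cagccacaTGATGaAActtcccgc
Atf3 (chr1:191183428-191183451, minus): tctcgcacTTgCATCAccaagtcc
Nupr1 (chr7:126625565-126625588, minus): gggccagaTTgCATCAgacagggc
Trib3 (chr2:152344031-152344054, minus): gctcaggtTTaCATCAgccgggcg

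Negative control 3 stood apart from its group. Depth recovered from the values lay between 14.4 and 16.8 M fragments per library, and between 13266 and 15470 genes were above 0, the lowest in negative control 3. In 65.2% of the 10166 genes with a mean of at least 1 FPKM (fragments scaled to exon length and sequencing depth) negative control 3 was closer to the average mimic than to the average of negative controls 1 and 2, and limma's array weights gave it 0.0908, against 0.339 to 3.44 for the others. Results are therefore given with and without it. Macrophage markers were present in all libraries: all 8 macrophage markers were above the minimum, with a summed level of 7161 to 8632 FPKM in controls and 6406 to 6673 with the mimic. Of 5 fibroblast, 4 epithelial and 5 lymphocyte markers 1, 0 and 1 were in the table, with sums of at most 0.0453 and 0.484 FPKM.

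The stress genes read lower on average with the mimic, most evenly among the ATF4 targets, but no gene passed the test. Of 32 tested genes (Chac1 lay under the minimum), 25 (78.1%) had a lower mean with the mimic and 7 a higher one, against 4438 of 10166 (43.7%) lower over all tested genes. By limma 0 of the 32 passed an adjusted p of 0.05 (smallest 0.332), as did 0 (0%) of all 10166 (smallest 0.289), and limma voom on recovered fragments also passed 0. At an unadjusted p under 0.05, 7 of 32 (21.9%) were lower, where 5.26% of all genes were, and 2 (6.25%) were higher, where 7.96% of all were. The 3 mimic values lay below the 3 control values in 5 genes (15.6%; 7.49% of all) and above them in 2 (6.25%; 12.6% of all).

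The median log2 fold change, mimic minus negative control on log2(FPKM + 1), was −0.30 over the 17 tested ATF4 and CHOP targets, of which 16 were lower. It was −0.14 over the 10 ER chaperones and folding factors (7 lower) and 0.18 over the 5 sensors and factors (2 lower), against 0.041 over all genes. After adjustment for exon length and GC content, in which a smooth trend on both was subtracted from each library, the medians were −0.13, −0.13 and 0.021. The median over all tested genes adjusted in this way was 0.029. The ATF4 targets had a median GC of 55.7% and the chaperones 48.2%, against 49.0% over all tested genes. Their median exon lengths were 2735 and 3036.5 bases, against 4252 over all tested genes.

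**Figure D1:**
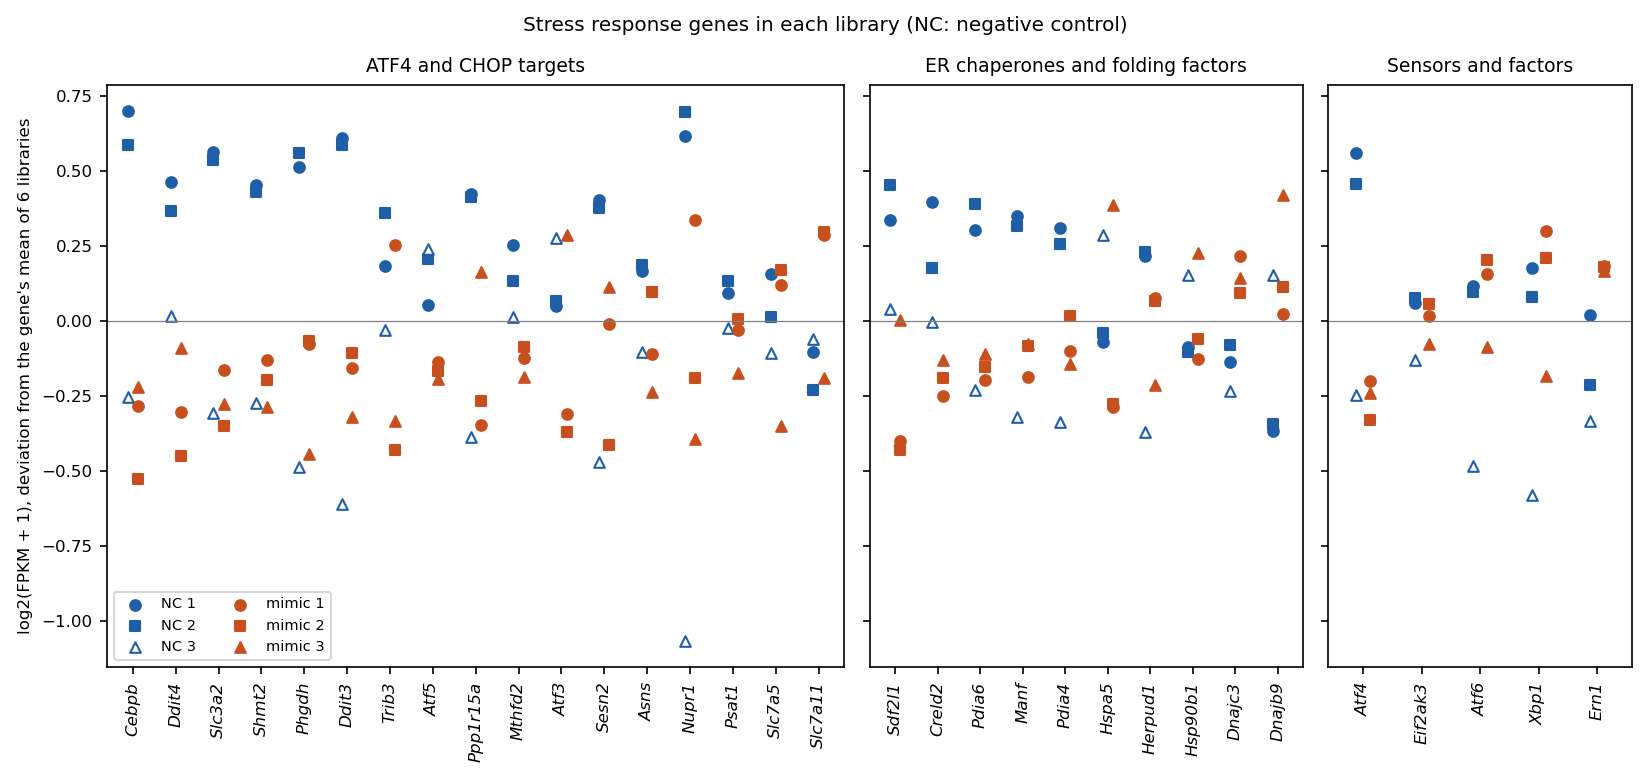
Deviation of log2(FPKM + 1) from each gene's mean over the 6 libraries, for the 32 tested genes in 3 panels by role, ordered by fold change; blue points are negative controls (open triangle, number 3) and orange points mimics. In 20 of the 32 genes the filled blue points, negative controls 1 and 2, lie above the other 4 libraries.

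The libraries fell into a recurrent order. In 20 of 32 genes (62.5%) negative controls 1 and 2 both lay above negative control 3 and the 3 mimics, a pattern of 26.7% of all tested genes; it held in 12 of 17 ATF4 targets, 6 of 10 chaperones and 2 of 5 sensors and factors. The opposite order, both below, was seen in 1 gene, Dnajb9 (3.12%; 21.5% of all). Summed over the 17 ATF4 targets, negative controls 1 and 2 read 667 and 656 FPKM, negative control 3 read 480 and the mimics read 474, 461 and 465. Negative control 3 was closer to the average mimic than to the other controls in 27 of the 32 genes (84.4%). It lay within the range of the mimics in 13 (40.6%; 30.6% of all tested genes) and was the lowest of the 6 libraries in 14 (43.8%; 37.2% of all). Both libraries numbered 3 lay below the other 4 in 10 (31.2%; 25.8% of all).

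Without negative control 3, 15 of the 32 passed lower (limma adjusted p under 0.05; 12.2% of all genes did) and 1 higher (11.6% of all). The 15 comprised 9 ATF4 targets (Ddit3, Ddit4, Phgdh, Shmt2, Mthfd2, Slc3a2, Cebpb, Ppp1r15a and Nupr1), 5 chaperones and folding factors (Pdia4, Pdia6, Sdf2l1, Manf and Creld2) and Atf4 itself, and the higher one was Dnajb9. In all 16 the library left out was closer to the average mimic than to the other controls. Choosing genes that pass once that library is left out favours this outcome. With the adjustment for length and GC added, 5 passed lower (2.3% of all genes did) and 0 higher (0.718% of all): Ddit3, Slc3a2, Cebpb, Pdia6 and Atf4. Whether the difference between negative controls 1 and 2 and the other 4 libraries comes with the transfection or with the libraries cannot be told apart.

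**Figure D2:**
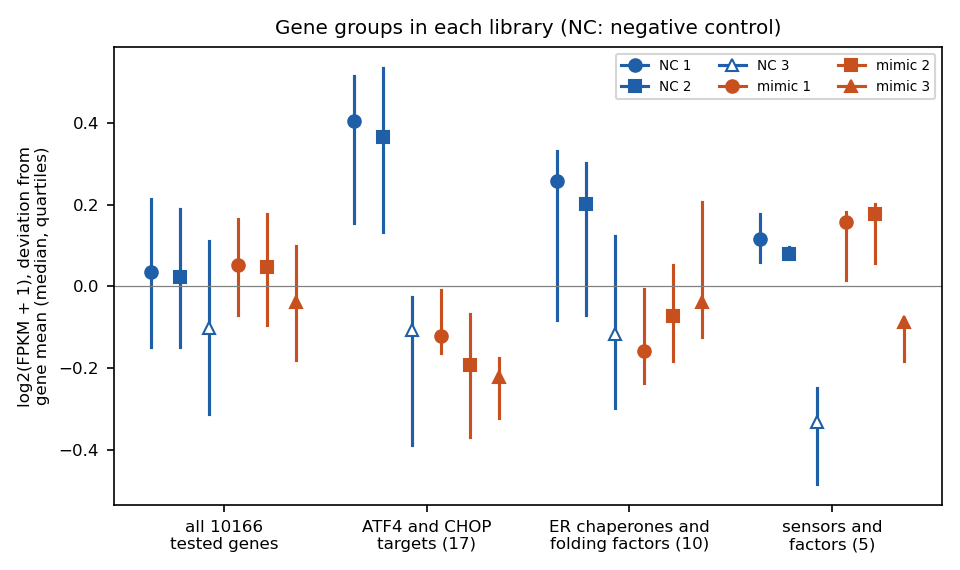
Median (symbol) and quartiles (line) of the deviation of log2(FPKM + 1) from each gene's mean, per library, for all 10166 tested genes and the 3 groups of stress genes. For the ATF4 targets negative controls 1 and 2 stand at 0.40 and 0.37 and the other 4 libraries between −0.22 and −0.11.

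Among the 5 sensors and factors, Ern1, Xbp1 and Atf6 had higher means with the mimic and Atf4 and Eif2ak3 lower ones, and 0 passed. Atf4, the central transcription factor of the integrated stress response (ENSMUSG00000042406; GRCm38 chromosome 15, 80255184 to 80257541) read 118, 109 and 66.8 FPKM in negative controls 1, 2 and 3 and 69.2, 63.1 and 67.3 FPKM in mimics 1, 2 and 3. The groups overlap because negative control 3 lies within the range of the mimics. The means were 98.0 ± 27.3 and 66.5 ± 3.12 FPKM (SD, n = 3, here and below), with a log2 fold change of −0.51 (SE 0.21, limma adjusted p = 0.368; −0.76 without negative control 3, adjusted p = 0.00524; −0.29 adjusted for length and GC).

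Ern1, which encodes IRE1, read 3.33, 2.68 and 2.39 FPKM in the controls and 3.84, 3.82 and 3.79 with the mimic. All 3 mimic values lie above the controls, at a low level and with an exon length of 8173 bases. The log2 fold change was 0.35 (SE 0.14, limma adjusted p = 0.363), and 0.27 without negative control 3. Its substrate Xbp1 (chromosome 11, 5520659 to 5525893) read 75.9, 70.8 and 44.5 FPKM in the controls and 82.7, 77.6 and 58.9 with the mimic. Within each group the library numbered 3 is the lowest, and the groups overlap (0.22, SE 0.23; −0.019 without negative control 3). Between libraries of the same number Xbp1 was higher with the mimic in 3 of 3 comparisons, though no label says that the numbers pair libraries. By limma with the replicate block the adjusted p was 0.381, and 0.246 adjusted for length and GC as well. The same held in direction for Ern1, Atf6, Dnajb9 and Dnajc3, and the share over all tested genes was not computed. Values per gene do not separate spliced from unspliced Xbp1, so IRE1 activity was not measured.

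Atf6 read 31.3, 30.8 and 20.3 FPKM in the controls and 32.2, 33.3 and 27.0 with the mimic, an overlap with the same low libraries (0.18, SE 0.19; −0.016 without negative control 3). The kinase PERK, from Eif2ak3, read 5.49, 5.57 and 4.69 FPKM and 5.30, 5.48 and 4.91 FPKM, and its log2 fold change was −0.0035 (SE 0.12). It was the smallest difference of the 32 genes.

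The ratio of Atf4 to Xbp1, the factors at the ends of the PERK and IRE1 branches, did not share the overlap of Atf4. It was 1.55, 1.55 and 1.503 in negative controls 1, 2 and 3 and 0.836, 0.813 and 1.14 in mimics 1, 2 and 3. Negative control 3 stands with the other controls in this ratio, and the groups do not overlap. The pair was chosen after its values were seen and was not tested. Over all 496 pairs of the 32 genes the ratio separated the groups in 118 (23.8%), near the 19.5% of all pairs of tested genes. Per gene the count ran from 0 of 31 pairs (Nupr1) to 20 (Ern1), with Atf6 in 17, Dnajc3 in 17, Xbp1 in 15 and Atf4 in 8. Ern1 and Dnajc3 separated the groups by their own values already. The share per gene was not computed for all tested genes.

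**Figure D3:**
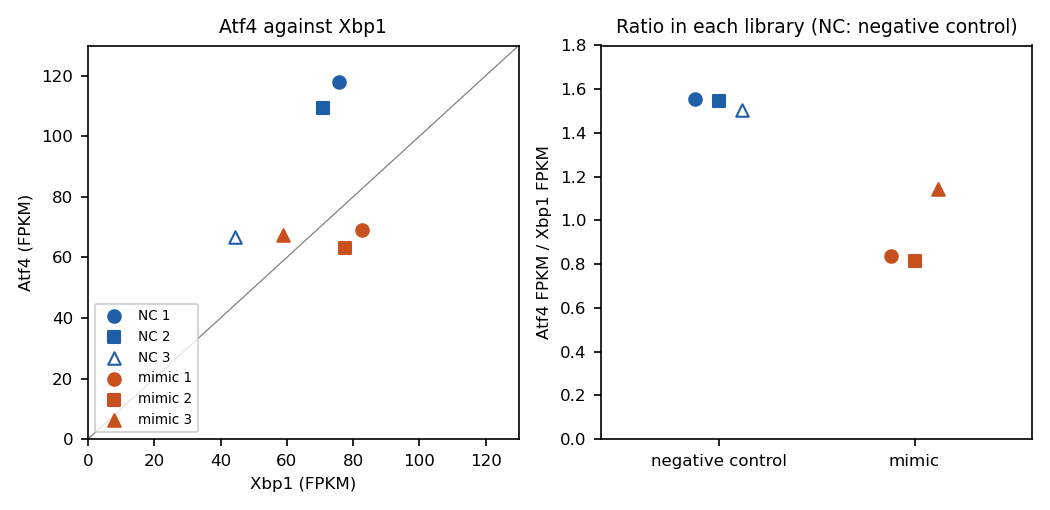
Left, Atf4 against Xbp1 in FPKM in each library, with the line of equal levels; right, the ratio of the 2 in each library. The 3 controls (blue) have ratios of 1.503 to 1.55 and the 3 mimics (orange) 0.813 to 1.14.

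Among the transcription factors and regulators downstream of ATF4, Ddit4 and Cebpb had the lowest unadjusted p. Ddit4, which encodes the mTORC1 inhibitor REDD1 (ENSMUSG00000020108), read 69.7, 65.1 and 50.8 FPKM in the controls and 40.5, 36.5 and 47.2 with the mimic. The groups do not overlap, and negative control 3 and mimic 3 are the closest values (61.9 ± 9.85 and 41.4 ± 5.39 FPKM; log2 fold change −0.56, SE 0.16, limma adjusted p = 0.332; −0.30 adjusted for length and GC). Cebpb, a basic leucine zipper factor of macrophage activation, read 118, 109 and 60.6 FPKM and 59.4, 50.02 and 62.1 FPKM. Here negative control 3 falls among the mimics, and the log2 fold change of −0.69 (SE 0.25) was the most negative of the 32. The exons of Cebpb share 20.7% of their bases with Tmem189 on the opposite strand (71.3 ± 5.12 and 54.8 ± 6.75 FPKM), and as the strand setting is not given, its value is uncertain.

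CHOP itself, from Ddit3 (ENSMUSG00000025408), read 13.7, 13.5 and 5.32 FPKM in the controls and 7.64, 7.95 and 6.72 with the mimic. Negative control 3 is the lowest of the 6 libraries (−0.39, SE 0.32; −0.79 without negative control 3). Its exons share 4.0% of their bases with Mars on the opposite strand. Atf3, a repressor induced by ATF4 and by many other signals, read 48.8, 49.4 and 57.3 FPKM and 37.8, 36.3 and 57.6 FPKM. It was the only ATF4 target with both libraries numbered 3 above the other 4 (−0.26, SE 0.19). The value was −0.19 without negative control 3, −0.40 without both libraries numbered 3 and −0.10 adjusted for length and GC.

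Atf5, an ATF4 relative whose 3′ untranslated region carries the 8mer printed above, read 3.47, 3.97 and 4.09 FPKM in the controls and 2.92, 2.84 and 2.77 with the mimic. All mimic values lie below the controls, negative control 3 included (−0.33, SE 0.12, limma adjusted p = 0.345). Adjusted for length and GC the log2 fold change was −0.035, and without negative control 3 as well 0.11; its transcript has a GC of 61.7%. Nupr1, a small stress-induced chromatin protein, ran from 1.70 FPKM in negative control 3 to 8.16 in negative control 2, and the mimics, at 6.14, 3.95 and 3.31, lie between. Its SE of 0.47 was the widest of the 32.

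Of the feedback and stress regulators, 0 passed. Ppp1r15a encodes GADD34, which directs a phosphatase to eIF2, and read 16.4, 16.3 and 8.94 FPKM in the controls and 9.22, 9.80 and 13.5 with the mimic. Negative control 3 is again the lowest (−0.30, SE 0.25; −0.57 without it). Trib3, a pseudokinase that restrains ATF4, lay between 0.680 and 1.90 FPKM (−0.34, SE 0.22), on 24 fragments in its lowest library. Sesn2, a sestrin that lowers mTORC1 activity, read 10.3, 10.1 and 5.18 FPKM and 7.51, 5.43 and 8.27 FPKM (−0.21, SE 0.26; −0.49 without negative control 3 and 0.011 adjusted for length and GC). Chac1, a glutathione-degrading enzyme, stayed under the minimum, at 0.783, 0.218 and 0.249 FPKM in the controls and 0.592, 0.331 and 0.477 with the mimic.

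The 4 enzymes of serine and one-carbon metabolism in this set all had lower means with the mimic, and 0 passed. Of such enzymes in a further list, Psph was lower (−0.41), and Mthfd1l (0.0066) and Aldh1l2 (0.13) were not. Phgdh, the first enzyme of serine synthesis, read 79.8, 82.3 and 39.4 FPKM in the controls and 52.7, 53.0 and 40.6 with the mimic, so that in both groups library 3 is lowest (−0.39, SE 0.28; −0.73 without negative control 3). Psat1, the next enzyme and the most abundant ATF4 target, read 144, 148 and 133 FPKM and 132, 135 and 119 FPKM. The groups overlap (−0.13, SE 0.11). Shmt2, which passes the carbon of serine to folate in mitochondria, read 28.8, 28.4 and 17.04 FPKM and 18.9, 18.0 and 16.9 FPKM (−0.41, SE 0.20). Mthfd2, the following mitochondrial folate enzyme, read 42.2, 38.7 and 35.5 FPKM and 32.3, 33.1 and 30.8 FPKM. It was 1 of 3 of the 17 ATF4 targets (17.6%; 7.49% of all genes), with Ddit4 and Atf5, whose mimics all lay below the controls, and its log2 fold change was −0.26 (SE 0.11, limma adjusted p = 0.368; −0.21 adjusted for length and GC).

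Asns, asparagine synthetase, read 35.97, 36.5 and 29.7 FPKM in the controls and 29.5, 34.2 and 27.0 with the mimic (−0.17, SE 0.14), an overlap within both groups' spread. The amino acid transporters did not go together. Slc3a2, the heavy chain that both light chains below need to reach the membrane, read 30.7, 30.1 and 16.4 FPKM and 18.2, 15.9 and 16.7 FPKM. Negative control 3 lies among the mimics (−0.53, SE 0.23; −0.81 without negative control 3, limma adjusted p = 0.00524). Its light chain for large neutral amino acids, Slc7a5, read 10.1, 9.06 and 8.27 FPKM and 9.84, 10.2 and 6.84 FPKM (−0.041, SE 0.17). The cystine light chain Slc7a11 read 5.36, 4.82 and 5.55 FPKM and 7.32, 7.39 and 4.98 FPKM. It was the 1 ATF4 target with a higher mean (0.26, SE 0.16), which became −0.048 adjusted for length and GC; its exons total 13922 bases with a transcript GC of 40.7%.

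**Figure D4:**
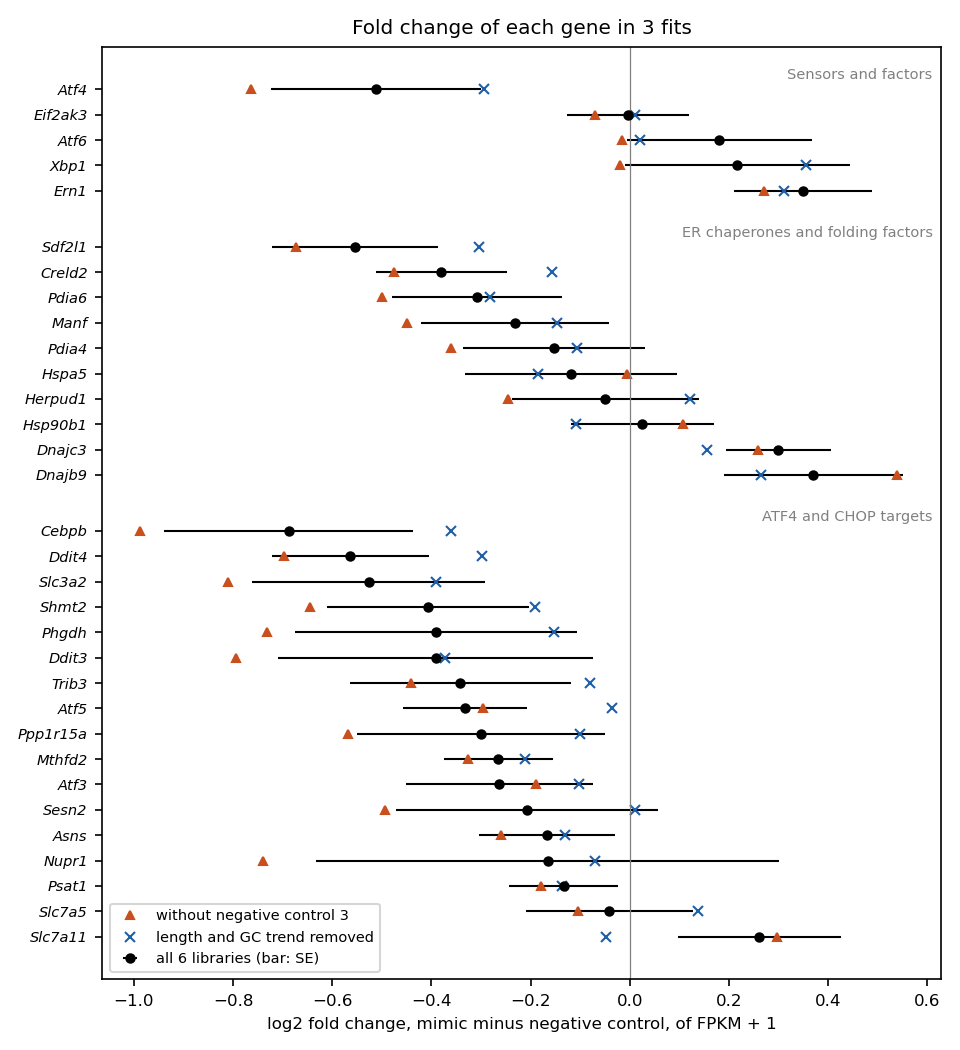
Log2 fold change of each tested gene, mimic minus negative control on log2(FPKM + 1), with all 6 libraries (black, bar 1 SE), without negative control 3 (orange) and adjusted for length and GC (blue). Atf4 moves from −0.51 to −0.76 and −0.29, while Xbp1 moves from 0.22 to −0.019 and 0.35.

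Of the 10 ER chaperones and folding factors, 7 had lower means with the mimic and 3 higher ones, and 0 passed. Hspa5, which encodes the central chaperone BiP (ENSMUSG00000026864; chromosome 2, 34771970 to 34777547), read 635, 648 and 813 FPKM in the controls and 546, 549 and 871 with the mimic. Hsp90b1, encoding the ER form of HSP90, read 420, 415 and 496 FPKM and 408, 427 and 522 FPKM. In both genes the libraries numbered 3 are above the other 4, and the groups overlap fully (−0.12, SE 0.21 and 0.025, SE 0.14). That order was found in 4 of the 32 genes, Atf3, Hspa5, Hsp90b1 and Dnajb9 (12.5%; 9.79% of all tested genes). Together Hspa5 and Hsp90b1 made up 74.3% to 83.0% of the summed FPKM of the 10 chaperone and folding genes. Hsp90b1 shares 2.1% of its exon bases with Gm15344 on the same strand.

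Dnajb9 and Dnajc3, the J-domain partners of BiP in this set, had higher means with the mimic. Of the J-domain genes in a further list, Dnajb11 stood at −0.19 and Dnajc10 at 0.24, both with overlapping groups. Dnajb9, whose product also restrains IRE1, read 17.4, 17.7 and 25.4 FPKM in the controls and 23.1, 24.6 and 30.7 with the mimic. Negative control 3 lies within the mimics (0.37, SE 0.18, limma adjusted p = 0.423; 0.54 without negative control 3, adjusted p = 0.0268; 0.27 adjusted for length and GC). Dnajc3, which binds misfolded protein and inhibits PERK, read 15.4, 16.1 and 14.3 FPKM and 19.9, 18.2 and 18.9 FPKM. All 3 mimics lie above all 3 controls (15.3 ± 0.873 and 19.0 ± 0.862 FPKM; 0.30, SE 0.11, limma adjusted p = 0.338), and the difference was 0.16 adjusted for length and GC. It was 0.26 without negative control 3, and 0.033 with that adjustment as well.

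Sdf2l1, which works with J-domain proteins of the ER in keeping clients soluble, had the most negative value of the chaperone set. It read 79.0, 85.7 and 64.1 FPKM in the controls and 46.9, 45.9 and 62.4 with the mimic. The groups do not overlap, though negative control 3 and mimic 3 are nearly level (76.2 ± 11.1 and 51.8 ± 9.24 FPKM; −0.55, SE 0.17, limma adjusted p = 0.332; −0.30 adjusted for length and GC). Creld2, a secreted ER stress protein, read 24.6, 21.0 and 18.4 FPKM and 15.4, 16.1 and 16.8 FPKM, likewise without overlap (−0.38, SE 0.13, limma adjusted p = 0.335; −0.16 adjusted for length and GC).

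The protein disulfide isomerases Pdia6 and Pdia4 and the remaining factors of this set showed the order of the ATF4 targets. In a further list the isomerases P4hb and Pdia3 did not show it, while Pdia5 and Txndc5 did. Pdia6 read 105, 112 and 72.5 FPKM in the controls and 74.1, 76.4 and 78.8 with the mimic, with negative control 3 the lowest of the 6 (−0.31, SE 0.17; −0.50 without it). Pdia4 read 60.0, 57.8 and 37.9 FPKM and 44.9, 48.7 and 43.6 FPKM (−0.15, SE 0.18; −0.36 without negative control 3). Manf, a secreted factor that binds BiP, read 29.2, 28.5 and 18.0 FPKM and 19.8, 21.3 and 21.5 FPKM (−0.23, SE 0.19; −0.45 without negative control 3). Herpud1, a membrane factor of ER-associated degradation, read 27.8, 28.1 and 18.2 FPKM and 25.2, 24.99 and 20.4 FPKM (−0.049, SE 0.19; −0.25 without negative control 3). In Pdia6, Pdia4, Manf and Herpud1 negative control 3 is the lowest library, so the spread of the controls covers the mimics. The 5 chaperone genes with the ER stress response element ran from −0.38 (Creld2) to 0.30 (Dnajc3).

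Other genes of the pathways, 90 in 6 lists, gave no call either: 0 passed in each list by limma, and the counts at an unadjusted p under 0.05 follow, beside 5.26% lower and 7.96% higher over all tested genes. Over all genes 43.7% had a lower mean, 7.49% had all mimics below all controls and 12.6% had all above. Of 17 tested other ATF4 targets 9 were lower and 8 higher (median −0.0092), with 2 and 2 at an unadjusted p under 0.05. Eif4ebp1, the translation repressor 4E-BP1, read 71.2, 75.4 and 35.2 FPKM in the controls and 34.9, 37.0 and 36.4 with the mimic, the order seen for Atf4 (−0.66, SE 0.27; −1.002 without negative control 3, limma adjusted p = 0.0042). The serine enzyme Psph (−0.41, SE 0.15) was lower in all 3 mimics. The tRNA exporter Xpot (0.44, SE 0.12) and the glutamine transporter Slc38a2 (0.36, SE 0.12) were higher in all 3.

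Of 20 tested other ER folding factors 14 were lower and 6 higher (median −0.21), with 5 and 1 at an unadjusted p under 0.05. The BiP nucleotide exchange factor Sil1 (−0.51, SE 0.15), the disulfide isomerase Txndc5 (−0.35, SE 0.12) and Sdf2, the paralogue of Sdf2l1 (−0.40, SE 0.15), were lower in all mimics than in all controls. The oxidase Ero1lb (0.29, SE 0.10) was higher in all. Of 16 tested genes of ER-associated degradation 8 were lower and 8 higher (median 0.019; 3 lower and 1 higher at an unadjusted p under 0.05). Edem3, a mannose-trimming enzyme, read 11.04, 10.6 and 13.2 FPKM and 16.98, 17.8 and 15.3 FPKM, without overlap (0.49, SE 0.13, limma adjusted p = 0.332). Its relative Edem2 (−0.38, SE 0.13) and the lectin Os9 (−0.50, SE 0.19) were lower in all mimics. For Os9 negative control 3 (9.724 FPKM) was nearly level with mimic 3 (9.716 FPKM).

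Of the 14 genes listed for eIF2, its exchange factor eIF2B and the other eIF2 kinases, 4 were lower and 10 higher (median 0.096), with 1 and 1 at an unadjusted p under 0.05. That list also holds Gcn1l1, Impact and Ppp1r15b. Eif2b2 read 36.4 ± 3.78 and 26.8 ± 4.19 FPKM (−0.43, SE 0.15). The double-stranded RNA kinase PKR, from Eif2ak2, read 12.6, 12.6 and 11.2 FPKM in the controls and 16.5, 18.2 and 13.2 with the mimic (0.36, SE 0.14), and the amino acid sensor GCN2, from Eif2ak4, stood at 0.23 (SE 0.11); both were higher in all 3 mimics. Of 8 tested genes listed for ATF6 processing and IRE1 partners 6 were higher (median 0.13, 0 at an unadjusted p under 0.05). That list also holds the factor genes Atf6b, Creb3 and Creb3l2. The site-1 protease Mbtps1 read 5.76 ± 1.35 and 7.35 ± 0.368 FPKM (0.32, SE 0.17). Of the transcripts known to be cut by IRE1, 2 of 7 could be tested, Pmp22 (0.12, SE 0.10) and Hgsnat (−0.075, SE 0.17).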

How the data were processed

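RNA of 6 RAW264.7 samples was sequenced with a SMARTer mRNA kit, and the authors deposited 1 FPKM value per gene and sample, one column per sample. The build mm10 and the tools HISAT2, fastp and DESeq2 appear in the submitters' processing notes, without roles. No version, annotation, counting tool or strand setting is named there. Of 16665 identifiers, 16582 matched GENCODE M21 (GRCm38), the source of gene symbols, exon lengths, coordinates and 3′ untranslated regions; GC content is that of the longest transcript. Depth was recovered from low FPKM values, of which 98.5% to 99.0% up to 20 fragments were whole within 0.1 fragment. Intervals of counts were not computed, as fragments are not independent molecules.

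Genes with a mean of at least 1 FPKM (10166) were fitted together with limma 3.58.1 (R 4.3.3). The model was fitted to log2(FPKM + 1) with its trend option, tests were two-sided, p-values were adjusted by Benjamini-Hochberg over all of these genes, and the threshold was 0.05. This scale understates changes of low genes. For the length and GC adjustment a natural spline of 4 degrees of freedom in each was subtracted per library. Alternatives changed the pseudocount, filter, scaling, library weights and block, or left libraries out. The fit was also run on simulated data with independent noise and no library standing apart, a setting unlike these data. Genes, lists and alternatives were chosen with earlier results of these data known. The rule for named genes asked for library values of the sensors, of the 6 smallest p and the 3 highest means in each other group, and up to 4 genes with the smallest p in each further list; nearly all other library values were added. Motifs were chosen after the values were seen. Same-numbered samples deviated from their group means together (r = 0.29, 0.18 and 0.34 over 10166 genes). Samples of unlike number were not compared, so this does not show that the numbers pair the samples. No label says what same-numbered samples share. The seed match of 1 further gene is not reported here.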

Additional observations from a re-analysis of the deposited data

How the results depend on the processing

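With all 6 libraries 0 of the 32 genes and 0 of all genes passed under every pseudocount, filter, scaling, voom and replicate block setting run, and after adjustment for length and GC; with the replicate block the medians stayed at −0.30 (ATF4 and CHOP targets) and −0.14 (ER chaperones), and with the block and that adjustment they were −0.13 and −0.13. The block changed no call. Calls appeared where negative control 3 was left out or weighted down. With array weights (0.0908 for negative control 3) 4808 genes and 23 of the 32 passed (ATF4 target median −0.53; other lists in the order of the report 4, 14, 11, 6, 2 and 2). Without replicate 3 of both groups 4377 and 21 passed (ATF4 target median −0.58; other lists 5, 15, 9, 6, 3 and 2). With 1 library left out the ranges were 0 to 2412 genes, 0 to 16 of the 32, medians of −0.49 to −0.20 and −0.30 to −0.075, and 0 to 2, 0 to 6, 0 to 7, 0 to 2 and 0 to 2 in the first 5 other lists, all maxima being without negative control 3. Without it and with length and GC adjusted 307 genes, 5 of the 32, 1 other ATF4 target and 1 eIF2 gene passed.

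Signs turned in the genes below, and 0 genes passed with all 6 libraries at equal weight. Of those below, Nupr1 passed without negative control 3 (limma adjusted p = 0.048). Atf3, Sesn2, Slc7a11, Nupr1 and Hspa5 passed without replicate 3 of both groups. With array weights Atf3, Atf5, Sesn2, Slc7a11 and Nupr1 passed. Adjusted for length and GC, with or without the replicate block, Sesn2 stood at 0.011, Slc7a11 at −0.048, Slc7a5 at 0.14, Hsp90b1 at −0.11, Herpud1 at 0.12 and Eif2ak3 at 0.011. Without negative control 3 as well, Atf3 stood at 0.041, Atf5 0.11, Slc7a11 −0.18, Slc7a5 0.18, Hsp90b1 −0.12, Herpud1 0.0024, Eif2ak3 0.00013 and Atf6 −0.22. Hspa5 was 0.11 under quantile normalisation, Hsp90b1 −0.014 with equal library medians, and Slc7a5 0.038 with array weights and 0.060 without replicate 3 of both groups. With 1 library left out Slc7a5 ran from −0.14 to 0.12, Nupr1 from −0.74 to 0.14, Hsp90b1 from −0.082 to 0.11, Herpud1 from −0.25 to 0.053, Eif2ak3 from −0.069 to 0.034, Atf6 from −0.016 to 0.28 and Xbp1 from −0.019 to 0.36. The cause was not tested.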
